A study of Mus musculus with 40 samples.

Results

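Nphs1, Wt1, Synpo, Podxl, Cd2ap and Ptpro are 6 genes known for their roles in podocytes, the epithelial cells that wrap the capillaries of the kidney glomerulus. They were taken by symbol from 18193 genes with a probe set on the arrays, and all 6 were found. Each gene was read from the probe set with the highest mean over all 40 arrays, and all 6 passed the filter on low signals in kidney, lung and heart. The arrays were Affymetrix expression arrays hybridised with RNA of whole organs from male C57BL/6 mice in a study of juvenile growth. Kidney and lung were taken at 1, 4 and 8 wk of age and heart at 1 and 4 wk, with 5 arrays per group. By their labels, growth was rapid at 1 wk, slow at 4 wk and very slow at 8 wk, and no treatment or mutation is named.

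Podocytes send out interlocking foot processes, and the gaps between them are bridged by the slit diaphragm, a cell junction that takes part in filtering the blood. Nephrin, the product of Nphs1, spans that gap, and the adaptor CD2AP ties it to the actin cytoskeleton. Synaptopodin, made from Synpo, binds actin in the foot processes. Podocalyxin, the product of Podxl, is the charged sialomucin of the podocyte surface and is also made by vascular endothelium. Ptpro encodes the receptor tyrosine phosphatase GLEPP1 of the podocyte surface, and Wt1 encodes a zinc finger transcription factor needed for kidney development and kept on in mature podocytes.

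Signals on these arrays are linear and were scaled by the depositors to the same trimmed mean on every array. Changes are differences of log2(signal + 16), which understate the change of weak signals. They were tested with limma and called at a Benjamini-Hochberg adjusted p under 0.05 over all genes tested. The 5 kidney-defining genes (Slc34a1, Umod, Slc12a1, Kap and Lrp2) summed to between 72298 and 168347 on the 15 kidney arrays, against at most 1466 on the lung and 810 on the heart arrays kept. Lung replicate 4 at 1 wk and heart replicate 5 at 1 wk went against their labels. The former had 160514 for the 5 heart-defining genes and 4020 for the 5 lung-defining genes, and the latter 11758 and 104862. Both were left out, which leaves 4 arrays in each of those groups, and the kidney comparisons do not use them. The design text gives 5 animals per age for kidney and lung. The labels do not tie arrays to animals beyond a number.

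On GRCm38.p6, RefSeq places Wt1 at chr2:105126529-105173614, Podxl at chr6:31519493-31563937 and Ptpro at chr6:137252299-137464634. Nphs1 lies at chr7:30458207-30488623 and Cd2ap at chr17:42748887-42876707. The probe sets used were 1422142_at for Nphs1, 1425995_s_at for Wt1, 1434089_at for Synpo, 1448688_at for Podxl, 1420907_at for Cd2ap and 1417676_a_at for Ptpro.

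RefSeq start-site windows on GRCm38.p6 were used for 3 of the 6 genes. They were taken by gene symbol and not by the signals. No window was available for Wt1 or Podxl, and none is shown for Synpo. Of the genes shown, Ptpro and Nphs1 had the group means that ran closest together of any 2 of the 6. Cd2ap is the gene whose change in kidney missed the threshold. Each window is the 250 bases before a start on the strand of the gene. Capitals mark GTGGGAG, a string within a sequence that WT1 binds, or its reverse complement. The windows lie at chr6:137252049-137252298 on the + strand for Ptpro, chr7:30459808-30460057 on the + strand for Nphs1 and chr17:42876425-42876674 on the - strand for Cd2ap. The last 2 lie inside the annotated span of their gene.
Ptpro: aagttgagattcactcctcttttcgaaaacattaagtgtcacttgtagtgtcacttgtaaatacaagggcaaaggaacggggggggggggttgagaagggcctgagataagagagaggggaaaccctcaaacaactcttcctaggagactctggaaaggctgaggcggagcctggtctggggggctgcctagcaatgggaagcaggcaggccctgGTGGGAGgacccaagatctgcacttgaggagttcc
Nphs1: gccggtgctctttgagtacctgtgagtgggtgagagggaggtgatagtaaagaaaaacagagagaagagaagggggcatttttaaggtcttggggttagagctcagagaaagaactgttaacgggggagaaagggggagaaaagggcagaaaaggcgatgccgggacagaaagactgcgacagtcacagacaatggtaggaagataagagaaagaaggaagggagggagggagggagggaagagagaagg
Cd2ap: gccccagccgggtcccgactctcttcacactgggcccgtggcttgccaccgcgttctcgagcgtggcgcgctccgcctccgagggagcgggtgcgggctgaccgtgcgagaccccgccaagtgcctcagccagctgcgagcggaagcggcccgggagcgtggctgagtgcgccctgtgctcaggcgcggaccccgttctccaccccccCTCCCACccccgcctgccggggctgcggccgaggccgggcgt
Searched on both strands, GTGGGAG matched once in the Ptpro window, 35 to 29 bases before the start. It matched once on the opposite strand in the Cd2ap window, 42 to 36 bases before the start. The Nphs1 window held no match of GTGGGAG or of CANNTG, the E-box, while Ptpro held 3 E-box matches and Cd2ap 2. No match of one motif overlapped a match of the other. Of 32851 windows of the same length, 8.25% held GTGGGAG and 66.2% held CANNTG. A match describes letters in this window and is not a measured site.

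Kidney signal of 5 of the 6 genes was lower at 4 wk than at 1 wk, and the same number was lower at 8 wk than at 1 wk. Over all 13644 genes tested, 25.4% were called lower at 4 wk and 27.9% at 8 wk. The median change of the 6 was -1.07 at 4 wk and -1.19 at 8 wk, on the log2 scale, beside -0.05 and -0.04 over all genes. Neither comparison is independent of the other, since they share the 1 wk arrays. Signals are scaled on each array, so they are relative to the other RNA of the organ. In RNA of a whole organ, fewer podocytes, less RNA per podocyte and more RNA from other cells cannot be told apart.

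**Figure D1:**
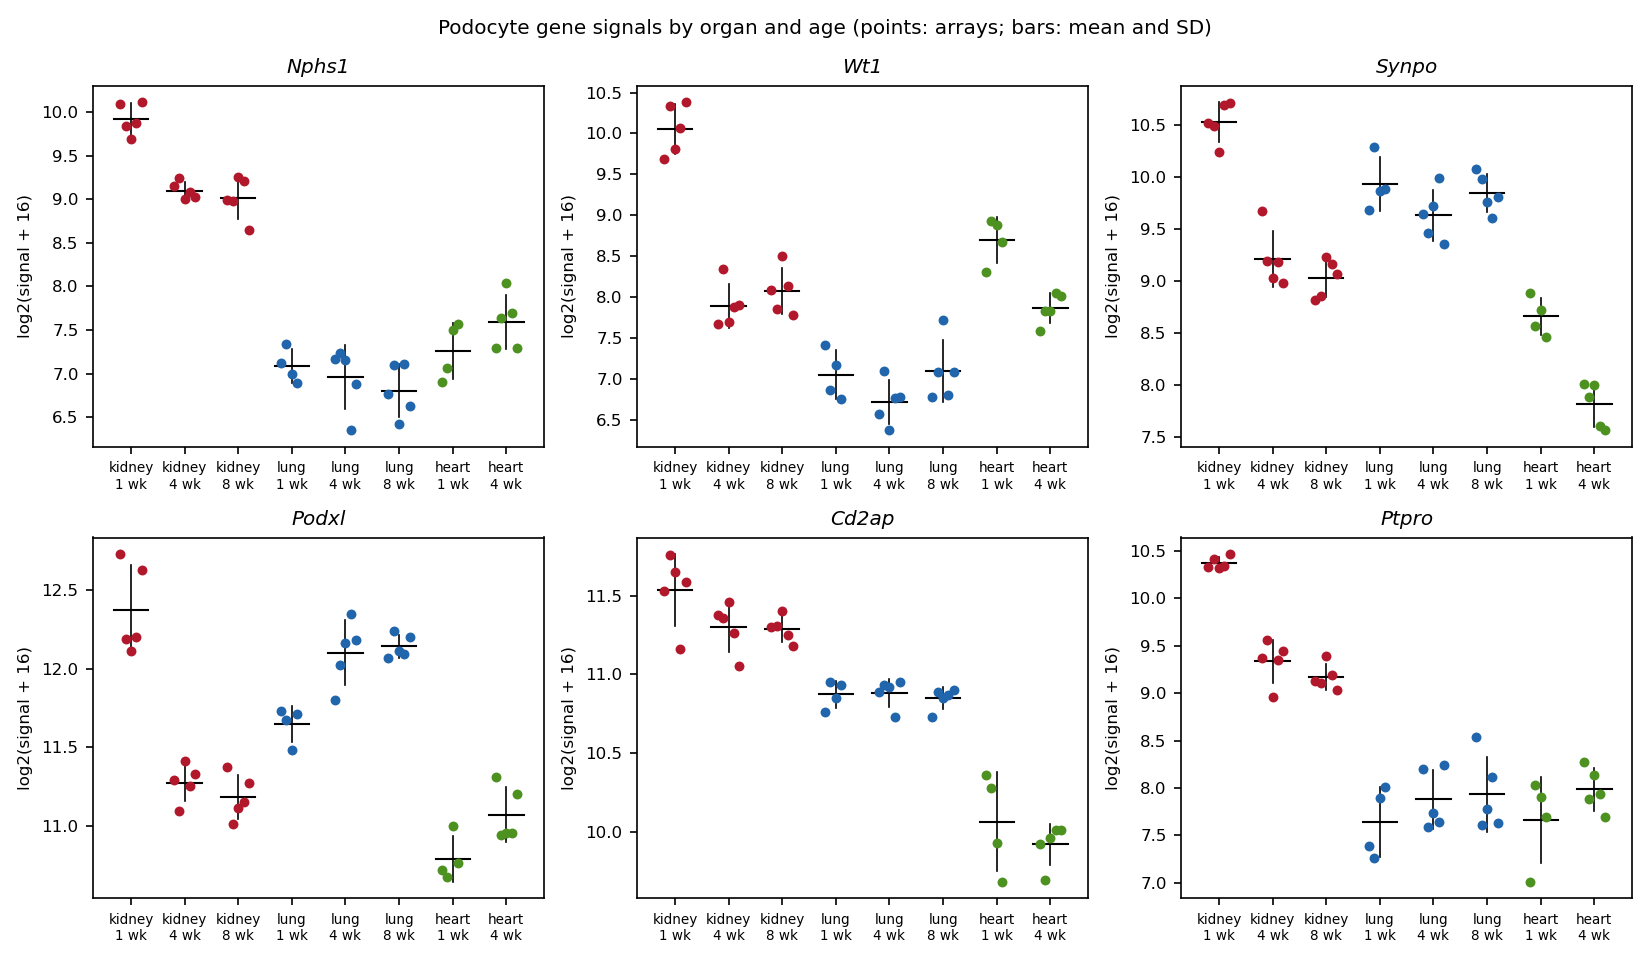
Each point is the log2(signal + 16) of 1 array, by organ and age in weeks, for each of the 6 genes, and bars give the mean and SD. In kidney the 5 arrays of 1 wk stand above all arrays of 4 and 8 wk for every gene except Cd2ap.

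Nphs1, the slit diaphragm gene, gave 1071, 900.1, 810.1, 918.5 and 1088 on the 5 kidney arrays of 1 wk. The 4 wk arrays gave 553.5, 590.0, 494.7, 526 and 503.3, and the 8 wk arrays 492.0, 487.6, 591.5, 574.5 and 386.6. Every 1 wk array lay above every later one, while the 4 and 8 wk arrays overlapped. Nphs1 fell by 0.82 (SE 0.12, adjusted p = 4.28e-05, limma) from 1 to 4 wk and fell by 0.90 (SE 0.12, adjusted p = 1.37e-05) from 1 to 8 wk. Its mean signal was 958 ± 119 at 1 wk and 506 ± 81.8 at 8 wk (SD, n = 5 each).

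Cd2ap, the adaptor of nephrin, moved little on the probe set used. The 1 wk arrays gave 2932, 3442, 3200, 2280 and 3064. The 4 wk arrays gave 2653, 2607, 2802, 2438 and 2102, and the 8 wk arrays 2502, 2528, 2681, 2421 and 2303. The groups overlapped because 1 wk replicate 4 lay among the later arrays, and the other four 1 wk arrays lay above all of them. The difference was -0.24 (95% interval -0.48 to 0.00, adjusted p = 0.108, limma) at 4 wk and -0.25 (-0.49 to -0.01, adjusted p = 0.0817) at 8 wk. Without 1 wk replicate 4 it was -0.33 and -0.34, and both were called. Cd2ap has 2 further probe sets. On 1420908_at the gene fell by 0.71 (SE 0.21, adjusted p = 0.0142) at 4 wk and fell by 0.56 (SE 0.21, adjusted p = 0.0413) at 8 wk. On 1420906_at the differences were -0.70 (adjusted p = 0.0511) and -0.51 (adjusted p = 0.14). The call for Cd2ap thus differed between probe sets, and the sign did not.

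Synpo, the actin-binding gene of the foot processes, gave 1452, 1421, 1194, 1633 and 1663 at 1 wk. It gave 798.9, 567.3, 505.6, 564.1 and 487.6 at 4 wk and 434.8, 444.1, 582.7, 557.2 and 522.4 at 8 wk. No later array reached the lowest array of 1 wk, and 4 wk replicate 1 was the highest of the later arrays. Synpo fell by 1.32 (SE 0.14, adjusted p = 1.47e-06, limma) at 4 wk and fell by 1.51 (SE 0.14, adjusted p = 2.82e-07) at 8 wk.

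Podxl, the surface sialomucin, gave 6780, 4663, 4412, 4677 and 6314 at 1 wk. It gave 2496, 2162, 2704, 2417 and 2550 at 4 wk and 2623, 2040, 2199, 2250 and 2450 at 8 wk. The 1 wk arrays were all higher, and within that age replicates 1 and 5 stood above the other 3. Podxl fell by 1.10 (SE 0.13, adjusted p = 3.95e-06, limma) at 4 wk and fell by 1.19 (SE 0.13, adjusted p = 1.35e-06) at 8 wk. Its other probe set, 1417396_at, was called at 4 wk (-0.77, SE 0.24, adjusted p = 0.0163) and not at 8 wk (-0.56, SE 0.24, adjusted p = 0.0658).

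Ptpro, the phosphatase, gave 1268, 1351, 1266, 1276 and 1402 at 1 wk, with an SD of 61.1 around a mean of 1313. It gave 646.8, 736.5, 482.3, 635.1 and 684.8 at 4 wk and 545.3, 536.2, 655.4, 569.5 and 506.2 at 8 wk. Here too the 1 wk group did not overlap the later ages. Ptpro fell by 1.04 (SE 0.11, adjusted p = 1.43e-06, limma) at 4 wk and fell by 1.20 (SE 0.11, adjusted p = 2.24e-07) at 8 wk. Its other probe set, 1425863_a_at, fell by 2.00 (SE 0.30, adjusted p = 4.89e-05) at 4 wk and fell by 1.72 (SE 0.30, adjusted p = 1.78e-04) at 8 wk. Its medians were 426 at 1 wk and 131 at 8 wk, and differences between probe sets of one gene were not tested.

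Wt1, the transcription factor, had the largest kidney change of the 6. The 1 wk arrays gave 812.1, 1278, 881.8, 1061 and 1317. The 4 wk arrays gave 187.0, 307.6, 191.1, 220.2 and 222.5, and the 8 wk arrays 256.2, 216.3, 347.0, 265.1 and 203.9. The lowest array of 1 wk lay well above the highest later array. Wt1 fell by 2.16 (SE 0.17, adjusted p = 7.47e-08, limma) at 4 wk, and 1.07% of all genes tested had a lower change. It fell by 1.99 (SE 0.17, adjusted p = 1.47e-07) at 8 wk, where 2.01% of genes had a lower change.

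Groups without overlap and a lower later signal were seen for Nphs1, Wt1, Synpo, Podxl and Ptpro in both comparisons. Over all genes tested, 18.2% were separated this way at 4 wk and 21% at 8 wk. Between 4 and 8 wk none of the 6 was called, where 0.623% of all genes were, and the unadjusted p of each exceeded 0.05 by limma. The 95% intervals of those differences ran from -0.34 to 0.17 for Nphs1, -0.19 to 0.55 for Wt1, and -0.48 to 0.11 for Synpo. For Podxl, Cd2ap and Ptpro they ran from -0.36 to 0.18, -0.25 to 0.23 and -0.40 to 0.07. Changes inside these limits are not excluded by these data, with 5 arrays a group.

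**Figure D2:**
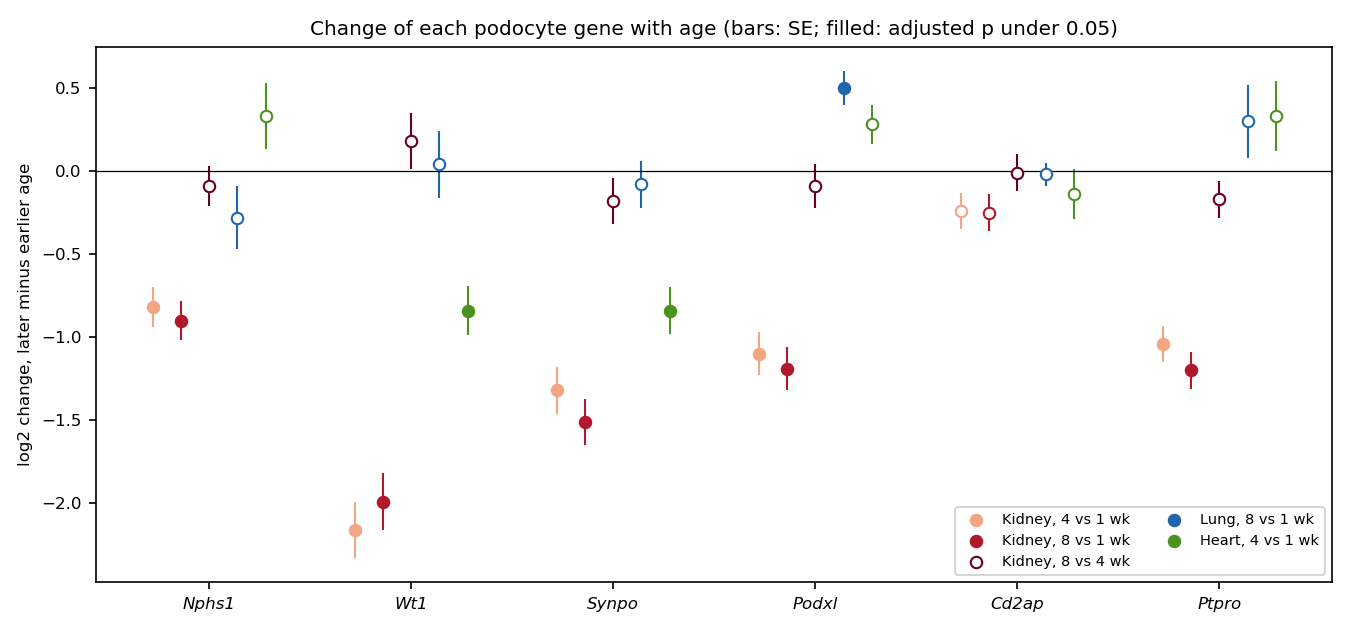
Points give the log2 change of each gene between 2 ages and bars its SE, with filled points at an adjusted p under 0.05 (limma). In kidney, Wt1 fell by 1.99 and Cd2ap changed by -0.25 from 1 to 8 wk, while the differences from 4 to 8 wk lie between -0.18 and 0.18.

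The 6 genes did not change by equal amounts. For each of 15 pairs, the within-array log2 difference between the 2 genes was compared between the kidneys of 1 and 8 wk with a two-sided exact permutation test, whose smallest p is 0.00794. In 12 of the 15 pairs the difference changed (Benjamini-Hochberg adjusted over the 15 pairs). The share among pairs of other genes was not computed, so whether the count is particular to the 6 is not known. Of all genes tested singly by limma, 47.4% were called between these ages, which is not a share of pairs. Wt1 minus Cd2ap changed by -1.74, and Nphs1 minus Wt1 by 1.08 (both with an adjusted exact permutation p of 0.0149). For Podxl and Ptpro no unequal change was detected on the probe sets used (0.01, exact permutation p = 0.913). On their other probe sets the changes were -0.56 and -1.72, and that pair was not tested. The pairs Nphs1 with Podxl (0.29, adjusted exact permutation p = 0.119) and Synpo with Podxl (-0.31, adjusted exact permutation p = 0.119) also missed the threshold, and the second was called without 1 wk replicate 1 (-0.41, adjusted exact permutation p = 0.0397). The pairs Nphs1 with Ptpro, Wt1 with Synpo, Wt1 with Podxl and Synpo with Ptpro lost their call when single arrays were left out.

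Single arrays within an age shifted several of the genes at once in some cases. In 1 wk replicate 5 all 6 lay above the mean of their age, by 0.18 on average on the log2 scale, and in 8 wk replicate 3, 5 of 6 did, by 0.19. In 1 wk replicate 3 only Cd2ap lay above its mean, and the average was -0.16. These shifts are small beside the falls of 0.82 or more of the 5 called genes.

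RNA quality readings moved with age in kidney. The log2 difference between the 3' and 5' actin control probe sets was 0.34 to 0.51 at 1 wk, 0.61 to 1.43 at 4 wk and 0.73 to 0.99 at 8 wk, and the 1.43 belongs to 4 wk replicate 1. With that reading as a covariate the 8 wk changes were -0.83 for Nphs1, -1.74 for Wt1, -1.69 for Synpo, -1.22 for Podxl and -1.19 for Ptpro, and all 5 were still called at both ages. Cd2ap stood at -0.25 (adjusted p = 0.239).

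Other genes of the podocyte foot process and slit diaphragm were mostly lower as well. Of 21 tested, 15 fell and 1 rose from 1 to 8 wk, with a median of -0.75, where 27.9% of all genes tested fell and 19.5% rose. At 4 wk 13 fell and the other 8 were not called, with a median of -0.70. At 8 wk the log2 change was -1.81 for the atypical cadherin Fat1, -1.58 for the integrin ligand Npnt, -1.39 for the intermediate filament gene Nes and -1.32 for the nephrin relative Kirrel. The gene that rose was Clic5 (0.29, adjusted p = 0.0208), named after its value was seen. Actn4, an actin cross-linker, stood at -0.08 (adjusted p = 0.527). Many of these genes are also made outside podocytes: on lung arrays the 24 genes of this list on the arrays summed to between 64699 and 78720, against 33953 to 38818 in kidney at 8 wk.

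Regulators of podocytes fell in kidney in 7 of 8 cases from 1 to 8 wk, with a median of -1.33, where 27.9% of all genes tested fell. Cdkn1c, which encodes the cell cycle inhibitor p57, fell by 4.01 (SE 0.14, adjusted p = 4.57e-12, limma). The log2 changes of the transcription factors Tcf21, Foxc2 and Foxd1 were -2.88, -1.78 and -1.37. Zhx2 rose by 0.37 (adjusted p = 0.0305) and was named after its value was seen. Tcf21 and Foxd1 are also genes of the kidney stroma, and the 10 mesangial, pericyte and renin cell genes tested fell in 7 cases, with a median of -1.54. Regulators on this list also fell in the reference organs. In lung from 1 to 8 wk 4 of 6 tested fell and 1 rose, and in heart from 1 to 4 wk 3 of 6 fell and 0 rose. Cdkn1c changed by -0.81 in lung and -0.51 in heart, Tcf21 by -1.10 and -1.41, and Foxc2 by -1.22 and -1.05, all called. Foxd1 was too weak to be tested in either.

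Among 12 genes for binding partners of the 6 proteins, 8 fell and 1 rose at 8 wk, with a median of -0.44. Sh3kbp1, the CD2AP relative CIN85, fell by 1.75. The kinase gene Fyn, whose product phosphorylates nephrin, fell by 1.43. The nephrin adaptor gene Nck2 fell by 0.95, and Wtip, named for its binding to WT1, fell by 1.08. Slc9a3r1, which encodes the podocalyxin-binding scaffold NHERF1 also abundant in proximal tubule, rose by 0.74 (adjusted p = 1.08e-05) and was named after its value was seen. Its relative Slc9a3r2, named for contrast, fell by 0.83.

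**Figure D3:**
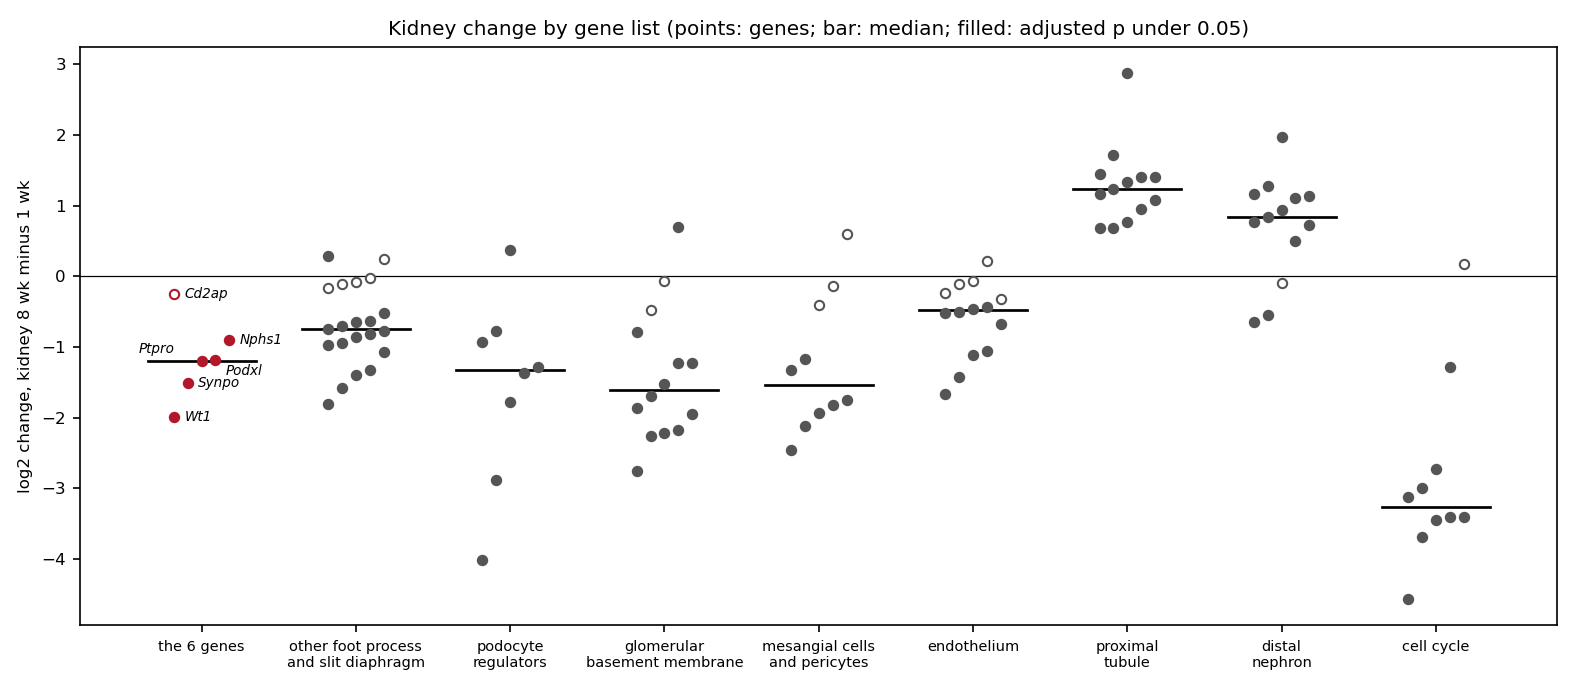
Each point is the log2 change of 1 gene in kidney from 1 to 8 wk, grouped by gene list, with a bar at the median and filled points at an adjusted p under 0.05 (limma). The 6 genes have a median of -1.19, against -1.60 for basement membrane, 1.24 for proximal tubule and -3.26 for cell cycle genes.

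The glomerular basement membrane is laid down jointly by podocytes and endothelium, and its laminin and collagen IV chains are replaced in part as the glomerulus matures. Of 14 of its genes, 11 fell and 1 rose in kidney from 1 to 8 wk, with a median of -1.60, where 27.9% of all genes tested fell. These falls were not confined to kidney. In lung over the same ages 11 of the 14 fell and 0 rose (median -0.74), where 22.1% of all genes fell. In heart from 1 to 4 wk 7 of 13 tested fell and 3 rose (median -0.40), where 14.8% of all genes fell. The log2 changes that follow are those of kidney. Lama1, an early laminin chain, fell by 2.75 (SE 0.15, adjusted p = 8.11e-10, limma) while Lama5, of the mature membrane, fell by 0.79 (SE 0.14, adjusted p = 2.93e-04). Lamb1 changed by -1.52 and Lamb2 by -1.23, and Lamc1, Nid1 and Nid2 by -2.26, -2.22 and -2.17. The widespread collagen chains Col4a1 and Col4a2 changed by -1.69 and -1.95. Of the chains of the mature glomerular network, Col4a3 rose by 0.69 (SE 0.22, adjusted p = 0.0152), Col4a4 stood at -0.07 (SE 0.12, adjusted p = 0.631) and Col4a5 fell by 1.22 (SE 0.10, adjusted p = 5.90e-08). Between 4 and 8 wk, Col4a2 fell by 0.55 (adjusted p = 0.0108) and Col4a5 fell by 0.46 (adjusted p = 0.0479), the only calls in this list at those ages.

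**Figure D4:**
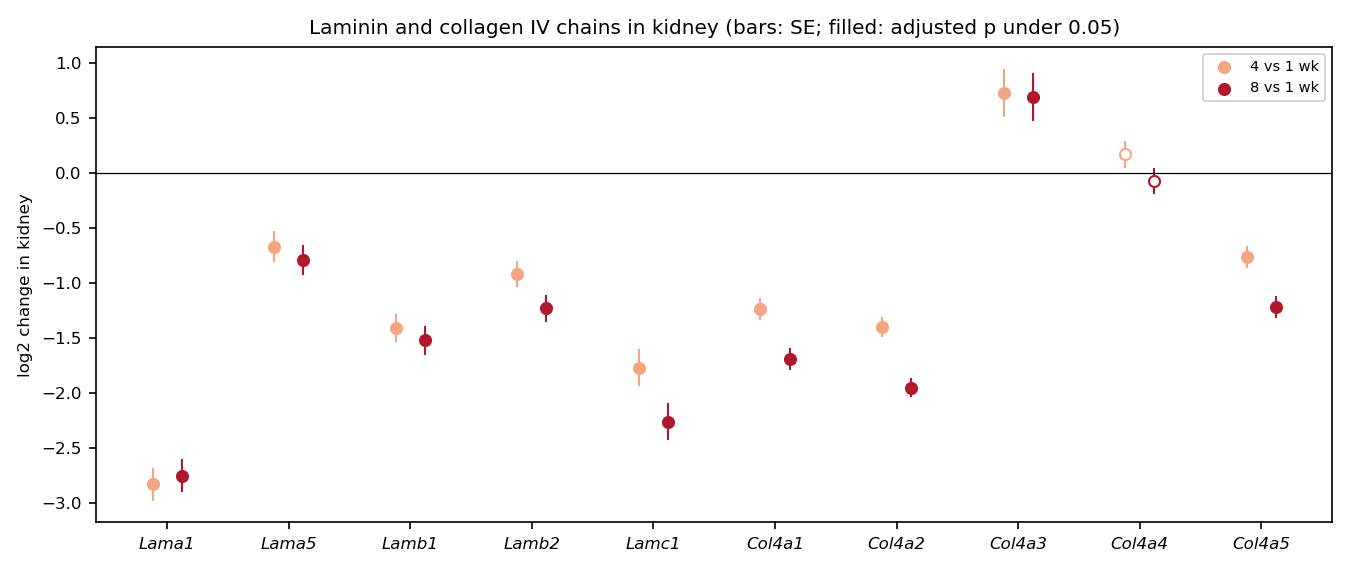
Points give the log2 change of laminin and collagen IV chains in kidney from 1 to 4 and from 1 to 8 wk, bars give the SE and filled points an adjusted p under 0.05 (limma). Col4a3 rose by 0.69 and Col4a4 stood at -0.07 at 8 wk, while Lama1 fell by 2.75.

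Other cell types moved over the same ages. Of 14 endothelial genes 9 fell and 5 were not called at 8 wk (median -0.48), with Tie1 at -1.67, Egfl7 at -1.43, Pecam1 at -1.11, Cdh5 at -1.05 and Kdr at -0.50. The mesangial and pericyte genes Acta2, Pdgfra, Rgs5, Thy1 and Pdgfrb changed by -2.45, -2.12, -1.93, -1.82 and -1.33. Every one of 13 proximal tubule genes rose (median 1.24), led by Slc13a3 at 2.87, Slc22a8 at 1.71, Slc5a12 at 1.44 and Slc3a1 at 1.40. Of 13 distal nephron genes 10 rose and 2 fell (median 0.84), with Pvalb at 1.97, Slc26a4 at 1.27, Slc12a3 at 1.16 and Calb1 at 1.14. Of 10 cell cycle genes 9 fell (median -3.26), with Birc5 at -4.56, Cenpa at -3.69, Melk at -3.44, Nuf2 at -3.41 and Mki67, the proliferation marker, at -3.40. The proximal tubule genes summed to between 81481 and 96053 at 1 wk and between 178326 and 212910 at 8 wk, while the 6 podocyte genes summed to between 11765 and 14849 and between 6253 and 7057. No gene of these lists was at 0 on every array of a group. The part of these changes in the falls of the 6 genes was not tested.

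Markers of tissue beside the kidney and of other cell types were also followed, with parietal epithelium and early nephron genes of the kidney itself. The 7 liver genes summed to between 14493 and 38063 at 1 wk and between 6561 and 8256 at 8 wk, with 4 lower and 1 higher. The 7 adrenal cortex genes tested had a median of -0.41 and no adjusted p under 0.0723 (limma). The sums of all 8 adrenal cortex genes on the arrays were 747 to 5089 at 1 wk and 959 to 1363 at 8 wk. Leukocyte genes had 1 higher of 4 tested, mesothelial genes 1 higher and 1 lower of 3, muscle genes 2 lower of 4, parietal epithelium 1 lower of 3 and early nephron genes 4 lower and 1 higher of 8. These counts are small, and several lie near the shares over all genes, 27.9% lower and 19.5% higher. Their part in the results was not tested.

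At 1 wk, on the probe sets used, all 6 genes were higher in kidney than in lung, where 24.3% of 14848 genes were, and than in heart, where 29.4% were. Nphs1 was higher by 2.83 (SE 0.18, adjusted p = 1.18e-15, limma) than in lung, Wt1 by 3.00 and Ptpro by 2.74. Synpo, Podxl and Cd2ap were higher by 0.60, 0.73 and 0.66. In lung, Nphs1 gave 103 to 146 at 1 wk, near the filter signal of 117.9, and no detection call was used to separate such levels from background. At 4 wk, Nphs1, Wt1, Cd2ap and Ptpro were higher in kidney than in lung (27.9% of genes), and Synpo and Podxl lower (35.8%). The same 4 were higher (29.1%) and the same 2 lower (35.7%) at 8 wk, by 0.82 for Synpo and 0.96 for Podxl. Against heart at 4 wk, Nphs1, Synpo, Cd2ap and Ptpro were higher in kidney (30.9%). Wt1 differed there by 0.04 (95% interval -0.33 to 0.40) and Podxl by 0.21 (-0.02 to 0.43), and neither was called. For Synpo, Podxl and Cd2ap these directions hold for the probe sets used. On Podxl 1417396_at, mean log2 signals at 1 wk were 9.44 in kidney and 9.37 in lung. On Cd2ap 1420908_at, kidney lay below lung at 4 wk (8.60 and 8.88) and 8 wk (8.74 and 8.78). On Cd2ap 1420906_at it lay above lung at both ages (8.61 and 8.58, 8.80 and 8.56). No test between organs is given for these probe sets. The Synpo probe set 1427045_at was used in the limma fit that takes each gene's probe set of the highest SD. There it was lower in kidney than in heart, at -2.83 (adjusted p = 6.83e-07) at 1 wk and -3.11 (adjusted p = 2.55e-08) at 4 wk. Against lung, where that probe set is weak in both organs, it stood at -0.22, 0.44 and 0.54 at 1, 4 and 8 wk and was not called. Without heart replicate 1 of 4 wk, Podxl was called at 0.26. With the left-out arrays in the fit, Synpo against lung at 4 wk stayed at -0.43 and lost its call (adjusted p = 0.106).

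On the probe sets used, the order of the 8 groups set the genes apart. For Nphs1 and Ptpro the 3 kidney groups were the highest, in the order 1, 4 and 8 wk, and 4 and 8 wk did not differ beyond their spread. For Nphs1, heart at 4 wk came next and no neighbouring heart or lung groups below it differed. For Ptpro no neighbours below the kidney differed either. For Wt1, kidney at 1 wk came first and heart at 1 wk second, above kidney at 8 and 4 wk. For Synpo, on the probe set used, the 3 lung groups lay between kidney at 1 wk and kidney at 4 wk. For Podxl, kidney at 1 wk (12.37) and lung at 8 wk (12.14) did not differ (0.23, adjusted p = 0.0764, limma), and lung at 4 and 1 wk followed. On its other probe set, 1417396_at, the means of lung at 4 and 8 wk (9.56 and 9.52) lay above kidney at 1 wk (9.44). For Cd2ap the kidney groups came first, then the lung groups, then heart, with no call between neighbouring ages of one organ. On its probe set 1420908_at, kidney at 4 and 8 wk (8.60 and 8.74) lay below every lung group (8.78 to 8.92). There the kidney fall from 1 to 4 wk was called (adjusted p = 0.0142, limma).

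In lung the genes took another course. Podxl alone was called, and it rose: 3370, 3232, 2839 and 3346 at 1 wk became 3559, 4131, 4559, 5211 and 4626 at 4 wk and 4282, 4831, 4408, 4338 and 4680 at 8 wk. Every later array lay above all 1 wk arrays, a separation seen for 16.6% of genes at 4 wk and 18.1% at 8 wk. The rise was 0.46 (SE 0.10, adjusted p = 0.00207, limma) at 4 wk, where 20.1% of 13705 genes rose, and 0.50 (SE 0.10, adjusted p = 9.97e-04) at 8 wk, where 22.2% rose. With the left-out lung array it was 0.61 and 0.65 and still called. The other Podxl probe set gave 0.20 (adjusted p = 0.151) and 0.16 (adjusted p = 0.241) in lung. Of 14 endothelial genes 7 rose and 7 were not called in lung from 1 to 8 wk (median 0.28), among them Ptprb, Flt1 and Tek at 0.80, 0.73 and 0.70, named after their values were seen. The part of endothelium in the rise of Podxl was not tested. Between 4 and 8 wk none of the 6 was called in lung, where 2.05% of genes were, and the unadjusted p of each exceeded 0.05 by limma. The other 5 genes had 95% intervals at 8 wk of -0.68 to 0.12 for Nphs1, -0.39 to 0.46 for Wt1, -0.39 to 0.22 for Synpo, -0.17 to 0.13 for Cd2ap and -0.18 to 0.77 for Ptpro. At 4 wk Synpo differed by -0.30 (adjusted p = 0.121), and by -0.38 with a call (adjusted p = 0.0424) without 4 wk replicate 4.

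In heart from 1 to 4 wk, Wt1 and Synpo fell, where 14.8% of 12791 genes did. Wt1 gave 302, 473, 456 and 392 at 1 wk and 176, 211, 211, 248 and 242 at 4 wk, with no overlap. It fell by 0.84 (SE 0.15, adjusted p = 0.00293, limma), but with the left-out heart array it stood at -0.56 (adjusted p = 0.183). Wt1 is known from the epicardium, the mesothelial cover of the heart. The 7 mesothelial genes tested there had a median of -0.38 and no adjusted p under 0.157, and their sums were 2141 to 3602 at 1 wk and 1316 to 3438 at 4 wk. Synpo gave 456, 363, 404 and 336 at 1 wk and 243, 220, 241, 178 and 173 at 4 wk, again with no overlap, which 13.8% of genes showed in this direction. It fell by 0.84 (SE 0.14, adjusted p = 0.00186), and by 1.11 with the left-out array.

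The 2 probe sets of Synpo went opposite ways in heart. While 1434089_at fell, 1427045_at rose by 0.77 (SE 0.14, adjusted p = 0.00269, limma) from 1 to 4 wk. In kidney 1427045_at gave 17.4 to 129.8 over all 15 arrays and was too weak to be tested, and it was too weak in lung as well. Its kidney means were 49.2 ± 45.9, 66.9 ± 29.6 and 85.2 ± 44.8 (SD) at 1, 4 and 8 wk. That order is opposite to the fall on 1434089_at, so the kidney fall of Synpo rests on 1434089_at alone. The direction of Synpo in heart therefore holds for a probe set and not for the gene. Both probe sets carry the symbol Synpo alone, and Synpo2 and Synpo2l are separate genes.

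**Figure D5:**
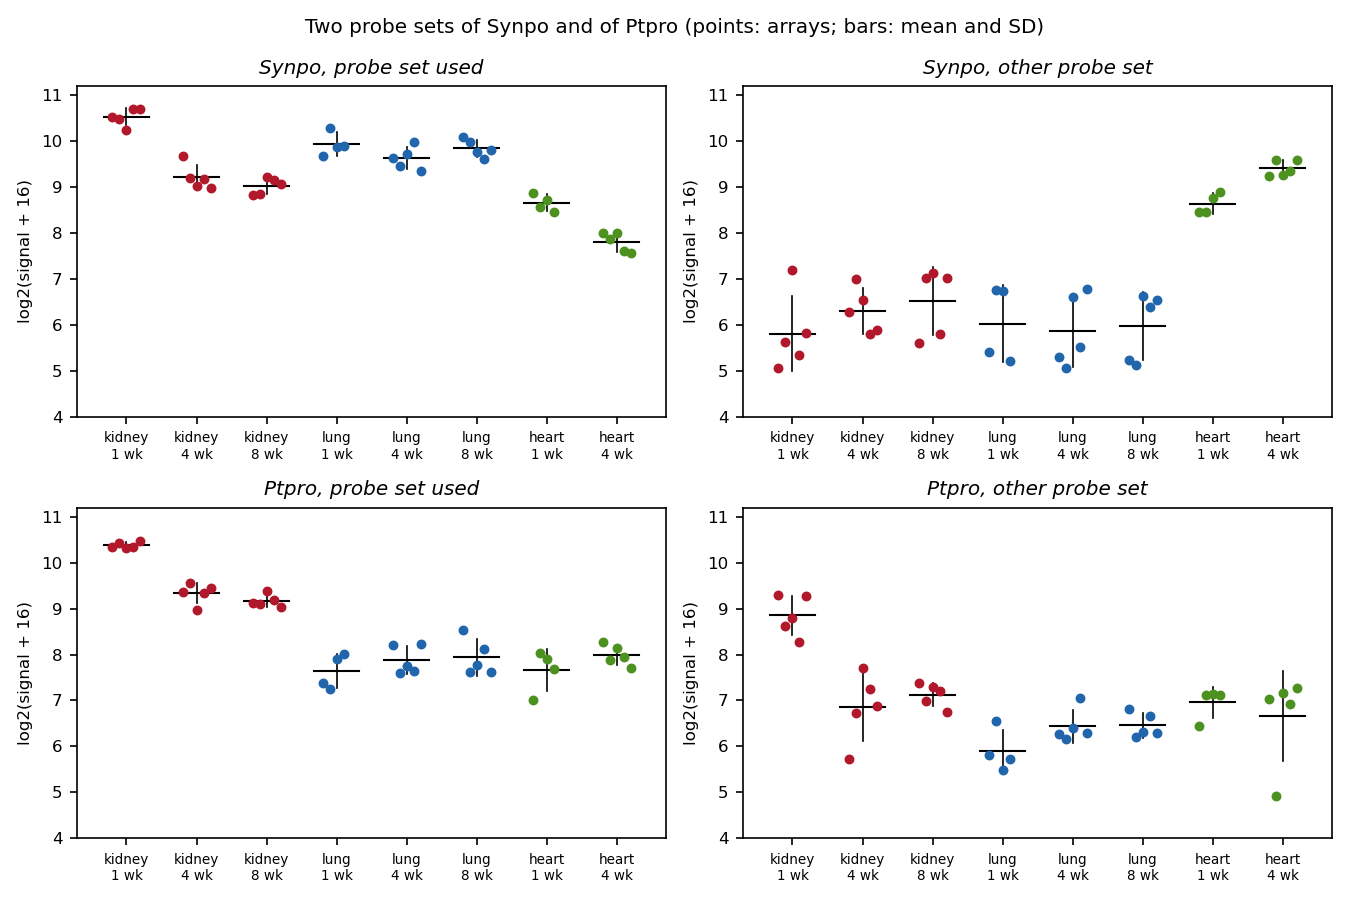
Points give log2(signal + 16) of each array, by organ and age in weeks, for both probe sets of Synpo and of Ptpro, with bars for the mean and SD. In heart from 1 to 4 wk the Synpo probe set used fell by 0.84 and the other rose by 0.77, while both Ptpro probe sets fell in kidney.

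The change with age differed between kidney and lung by the test of the difference itself. From 1 to 8 wk the kidney change minus the lung change was -2.02 for Wt1 (SE 0.26, adjusted p = 2.11e-07, limma), -1.69 for Podxl, -1.50 for Ptpro and -1.42 for Synpo, where 18.7% of genes were called lower. For Nphs1 it was -0.62 (SE 0.24, adjusted p = 0.0483), a call that was lost in 20 of 32 alternative fits. For Cd2ap it was -0.23 (95% interval -0.54 to 0.09). From 1 to 4 wk the same 5 genes were called, where 16.4% of genes were, at between -1.83 for Wt1 and -0.69 for Nphs1. Against heart from 1 to 4 wk, where 13.4% were called lower, the difference was -1.15 for Nphs1, -1.32 for Wt1, -1.38 for Podxl and -1.37 for Ptpro. It was -0.48 for Synpo (95% interval -0.89 to -0.07, adjusted p = 0.0872) and -0.09 for Cd2ap. Synpo was called there without kidney 1 wk replicate 3 (-0.55) or kidney 4 wk replicate 1 (-0.59). On 1427045_at, in the fit on probe sets of the highest SD, the difference of Synpo from lung was 0.76 at 8 wk and 0.66 at 4 wk, and neither was called.

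Genes with the most similar course over the 8 groups were found by the root mean square difference between group means, each gene centred on its own mean, among 14847 others. For Nphs1 they were Slc40a1, Cfi and Ddn, at 0.25, 0.26 and 0.26 log2 units, against a median gene at 1.20. Ddn, which encodes dendrin of the slit diaphragm, is itself on the foot process list. For Ptpro they were Hoxa11, Rab3b and Slc11a2 at 0.16, 0.18 and 0.19, and for Podxl Fmnl2, Stxbp6 and Stk26 at 0.13, 0.13 and 0.15. For Synpo they were Pamr1, Dzip1 and Kank4 at 0.18, 0.21 and 0.22, and for Cd2ap Lima1, E2f5 and Wdfy3 at 0.09, 0.11 and 0.11. Wt1 had the least close neighbours, Plppr1, Pkdcc and Nav3 at 0.37, 0.38 and 0.38. Within the 6, Nphs1 and Ptpro were nearest at 0.31, followed by Synpo and Podxl at 0.44.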

How the data were processed

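Values are the deposited intensity of each probe set on 40 arrays, as linear signals whose 2% trimmed mean is 500 on every array. The submitters' processing notes name RMA and Partek 6.6. Linear signals scaled in this way are not the usual output of RMA, and which method made the deposited values is not given in the sources used here. Of 45101 probe sets, 34958 carry 1 gene symbol in the platform annotation (13 control probe sets among them were left out), 932 several and 9211 none. One probe set per gene, that of the highest mean over all 40 arrays, gave 18193 genes. A gene entered a fit when its highest group mean was at least 117.9, the signal at percentile 40. log2(signal + 16) was fitted with limma 3.58.1 (R 4.3.3, lmFit and eBayes), per organ or over 38 arrays between organs, with Benjamini-Hochberg adjustment at 0.05. The script was tested on simulated data. Exact permutation tests used scipy 1.17.1. Nothing says beyond the design text that arrays are separate animals, and p-values measure the spread between these arrays.

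Named genes are the 6, up to 4 called genes per list with the largest change in kidney from 1 to 8 wk, a set named whatever they did, and the 3 most similar genes per member. The members and lists were chosen with earlier results of these data known. The replicate numbers were not taken to pair arrays. Of 15 pairs of kidney arrays with the same replicate number at different ages, 3 had residual correlations over 0.1 (range -0.29 to 0.32). That check compares ages and cannot show whether arrays of different organs came from one animal. Such sharing was not tested, and the main fits between organs treated all arrays as independent. Alternatives were quantile normalization, offsets of 1 and 64, other filters and probe sets, a trended robust prior, 2 groups only, all 40 arrays, control probe covariates, a replicate block, a random block and leaving out each array. Gene positions and start-site windows are from RefSeq (GRCm38.p6).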

Additional observations from a re-analysis of the deposited data

Results flagged for a closer look

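Cd2ap had 1 low array in each of 2 lung groups: replicate 4 at 4 wk gave 1688 and replicate 1 at 8 wk gave 1683, each set off from the other 4 by 0.72 of the group's range. Of 48 groups of the 6 genes checked, 2 stood out so, and chance gives about 1 in 20.

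The change with age differed between organs for 5 of the 6 genes (limma, test of the difference, log2 units). Kidney minus lung from 1 to 8 wk was -0.62 for Nphs1, -2.02 for Wt1, -1.42 for Synpo, -1.69 for Podxl and -1.50 for Ptpro, where 18.7% of all genes were called lower. From 1 to 4 wk it was -0.69, -1.83, -1.03, -1.56 and -1.28 in the same order, where 16.4% were. Kidney minus heart from 1 to 4 wk was -1.15 for Nphs1, -1.32 for Wt1, -1.38 for Podxl and -1.37 for Ptpro, where 13.4% were. These comparisons share the kidney arrays of 1 wk. The Nphs1 difference from lung lost its call in 9 of 32 alternatives at 4 wk and in 20 of 32 at 8 wk.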

How the results depend on the processing

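The falls of Nphs1, Wt1, Synpo and Ptpro in kidney kept their direction and their call at 4 and 8 wk in every alternative run, as did Podxl except on its other probe set at 8 wk (-0.56). For Synpo these kidney alternatives did not include its other probe set, which was too weak there to be tested and whose means rose with age. With a replicate block the 5 genes were called lower at both ages, 5555 genes in all at 4 wk, 6184 at 8 wk and 75 between 4 and 8 wk, and among the changes within an organ it altered no other call of the 6. Between organs the kidney change minus the lung change of Nphs1 from 1 to 8 wk was then -0.61 and no longer called (adjusted p = 0.0575). Cd2ap in kidney was called after quantile normalization (-0.34 at 4 wk, -0.35 at 8 wk) and on probe set 1420908_at (-0.71, -0.56), and not on 1420906_at (-0.70, -0.51). With each array left out it ranged from -0.33 to -0.17 at 4 wk and from -0.34 to -0.19 at 8 wk. The actin covariate left 3659 genes called at 4 wk. Leaving out arrays gave 50 to 110 calls between 4 and 8 wk in kidney, lowest without 8 wk replicate 2. In lung between those ages 281 calls became 143 with no filter, 134 with the probe set of the highest SD, 15 with all 40 arrays, 167 with the replicate block and 115 to 278 with arrays left out. Taking the probe set of the highest SD over all organs turned Synpo to its other probe set. Kidney against lung then read -0.22, 0.44 and 0.54 at 1, 4 and 8 wk, kidney against heart -2.83 and -3.11 at 1 and 4 wk, and the difference in change from lung 0.76 at 8 wk and 0.66 at 4 wk. The cause of the other shifts was not tested. Signals near 117.9, such as Nphs1 and Wt1 in lung, limit what can be seen there.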
